A study of Mus musculus with 6 samples.

Results

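A set of 35 genes of stromal matrix, contractile and endothelial cells was examined in cultures of mouse BCR-ABL leukaemia that differed in the Ikaros gene. The members were chosen by name, with earlier results of these data known. They are collagens, matrix glycoproteins, proteoglycans, matrix enzymes, actin-associated genes, niche factors, growth factor receptors and endothelial receptors whose symbols were looked up in the expression table. Of the 35 genes, 34 were found among the 22099 genes of the table, and Col6a3 was not found under its symbol. A level of at least 1 RPKM in at least 2 of the 6 libraries was reached by 28 members, which entered the tests. RPKM is a read density scaled to transcript length and to library size, so levels can be compared only roughly between genes and between libraries. The sums of RPKM differed between libraries, from 287007 to 345766. A gene with several transcript rows is given as their sum, and those rows may share reads. The filter was met through the ZnF1 mutant libraries alone by 7 of the 28 (Col3a1, Col5a1, Col5a2, Fbn1, Vcam1, Pdgfrb and Kdr) and through the ZnF4 mutant libraries alone by 1 (Cdh5). Dcn, Lum, Postn, Pdgfra, Col4a1 and Col4a2 stayed below it and are given by their levels only.

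The cultures came from C57BL/6 mice, and the labels give no age. The ZnF1 mutant and ZnF4 mutant groups were homozygous (-/-) for loss of zinc finger 1 or zinc finger 4 of Ikaros, and the wt group carried unaltered Ikaros. Whole marrow of all 3 groups received BCR-ABL p185 and a YFP marker by retrovirus at day 0, wt included, and polyadenylated RNA was sequenced at day 14 in vitro from 2 biological replicates of each group. The labels call the cells transformed pro-B acute lymphoblastic leukaemia and describe no sorting after transduction, so other marrow cells may be present. In bulk RNA of this kind, fewer cells of a type and less RNA per cell cannot be told apart.

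Matrix genes encode the scaffold that mesenchymal cells lay down around haematopoietic cells. Collagen chains are folded with the help of dedicated chaperones, secreted, trimmed and crosslinked by lysyl oxidases, and remodelled by metalloproteinases that are held in check by tissue inhibitors. In marrow, stromal cells also supply the chemokine Cxcl12 and the adhesion molecule Vcam1, which position and hold B-cell precursors, and smooth muscle type genes mark contractile stromal cells. Ikaros binds DNA through zinc fingers, regulates genes of lymphoid cells and restrains this leukaemia.

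The label of the cells and the label of the gene set were set against defining markers. All 8 pro-B markers were high in every library, with summed levels of 3310 and 2850 RPKM in ZnF1 mutant cultures, 3440 and 2290 in ZnF4 mutant cultures and 3000 and 2260 in wt; here and below the values of a group are those of replicate 1 and then replicate 2. Of 20 further endothelial genes, Tek, Cldn5, Robo4, Sox17 and Sox18 were listed at 0 in all 6 libraries, and 11 of the 20 never exceeded 0.5 RPKM. The 5 that passed the filter were Eng at 68.3 to 164.1 RPKM over the 6 libraries, Erg at 53.5 to 132.2, Pecam1 at 9.4 to 25.8, Egfl7 at 5.2 to 15 and Ramp2 at 1.5 to 7. The set itself holds Cdh5 and Kdr as its endothelial members, both at or below 2.1 RPKM, and they are called by those names. Of 18 marrow stromal and mesenchymal markers, 8 never exceeded 0.5 RPKM, Fap at 0 and Lepr at 0 to 0.1 RPKM among them, and 7 passed the filter. The mesenchymal factor Foxc1 stood at 47.3 and 33.3 RPKM in ZnF1 mutant cultures, 15.1 and 13.9 in ZnF4 mutant cultures and 38.1 and 26 in wt. Over the 6 libraries the others that passed were Csf1 at 37.9 to 140.5 RPKM, Grem1 at 0.7 to 11.5 and Pdpn at 0.9 to 8.3. Prrx1 spanned 0.8 to 4.5 RPKM, Nes 0.8 to 3.4 and Kitl 0.3 to 1.3. Ikzf1 itself, at 101.5 and 116.7 RPKM in ZnF1 mutant cultures, 188.2 and 170.2 in ZnF4 mutant cultures and 89.2 and 85.9 in wt, does not check the labels, since the level of the whole gene does not show the loss of a single finger.

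Some libraries stood apart. Summed over the 34 members, ZnF1 mutant replicate 1 held 841 RPKM, ZnF1 mutant replicate 2 held 387, the ZnF4 mutant libraries 184 and 160, and the wt libraries 183 and 186. Granulocyte transcripts followed another order, at 1.8 and 1530 RPKM over 8 genes in ZnF1 mutant cultures, 5.9 and 51.5 in ZnF4 mutant cultures and 506 and 0.5 in wt. The 14 macrophage genes summed to 1040 and 1180 RPKM in ZnF1 mutant cultures, 402 and 447 in ZnF4 mutant cultures and 375 and 432 in wt, so that both ZnF1 mutant libraries were above the others. All 14 macrophage genes passed the filter on low values, and none was at 0 in all libraries. Megakaryocyte genes, at 30.9 and 31.2 RPKM in ZnF1 mutant cultures, 22.7 and 30.5 in ZnF4 mutant cultures and 41.2 and 19.2 in wt, lay within the wt range in both mutants. The part of these other cells in the results that follow was not tested.

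**Figure D1:**
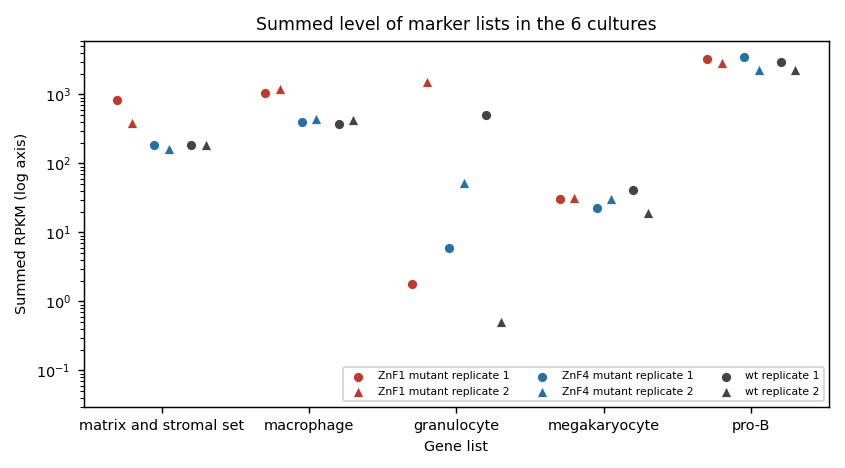
Summed RPKM (log axis) of the matrix and stromal set and of 4 cell type marker lists in each of the 6 libraries; colour gives the group, circles replicate 1 and triangles replicate 2. The matrix and stromal set reached 841 and 387 RPKM in the ZnF1 mutant, against 160 to 186 in the other libraries, while granulocyte genes peaked in ZnF1 mutant replicate 2 and wt replicate 1.

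The matrix and stromal genes were highest in the ZnF1 mutant. Of the 33 members with any signal, 26 had their highest level in ZnF1 mutant replicate 1, 6 in ZnF1 mutant replicate 2 (Col6a1, Col6a2, Fbn1, Dcn, Pdgfra and Kdr) and 1, Cdh5, in ZnF4 mutant replicate 1. Levels of at least 5 RPKM were reached by 21 and 18 members in the ZnF1 mutant libraries, 11 and 6 in the ZnF4 mutant libraries and 13 and 11 in the wt libraries. The lowest level fell in ZnF4 mutant replicate 2 for 17 members.

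**Figure D2:**
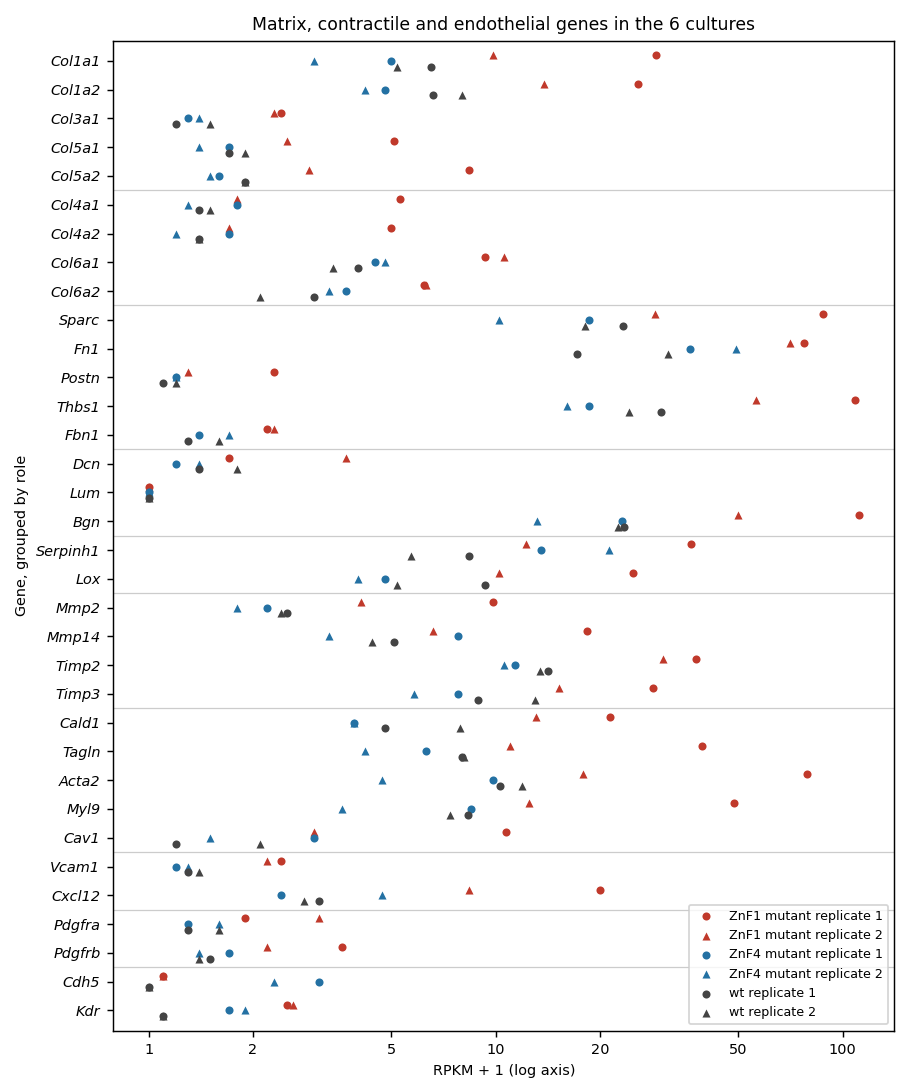
Level of each of the 34 members found (RPKM + 1, log axis) in the 6 libraries; colour gives the group, circles replicate 1 and triangles replicate 2, and grey lines separate the roles. The red ZnF1 mutant points lie to the right for nearly every gene, with the replicate 1 circle far beyond the triangle for Acta2, Tagln and Myl9 and next to it for Col6a1, Col6a2, Fn1 and Kdr.

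In the comparison of the ZnF1 mutant with wt, both ZnF1 mutant libraries exceeded both wt libraries for 32 of the 34 members, and no member was lower in this way. Among all 11345 genes tested, 18.3% were higher without overlap and 12.7% lower. Because the members were chosen with earlier results of these data known, contrasts with all genes are descriptive, here and below. The median difference over the 34 members was 1.29 on the log2(RPKM + 1) scale, with a range of 0 to 2.14, against -0.01 for all genes tested. Within replicate 1 the median was 1.84 and within replicate 2 it was 0.7, and 33 of 34 members were above wt in each, the exception being Lum, a proteoglycan gene listed at 0 throughout. In limma's test with Benjamini-Hochberg adjustment over all genes, no member passed the adjusted p threshold of 0.05, and neither did any other gene, so that 0% were called higher and 0% lower; 14 of the 21 members that did not enter through the ZnF1 mutant libraries alone, and 1281 of the 11345 genes, had an unadjusted p under 0.05. With the replicate number as a block, which compares libraries of the same number with each other, 11 of those 21 members rose and 0 fell, beside 10.4% of all genes called higher and 2.88% lower. The blocked test was also passed by 5 of the 7 members that entered through the ZnF1 mutant libraries alone (Col3a1, Fbn1, Vcam1, Pdgfrb and Kdr), for 16 in all; the filter had fixed their direction, so they are given by their values. With ZnF1 mutant replicate 1 left out, the blocked differences were 1.19 for Thbs1, 1.18 for Timp2, 1.56 for Col6a1 and 1.5 for Col6a2. With ZnF1 mutant replicate 2 left out they were 1.88, 1.41, 1.3 and 1.13. Fewer members were called in both of these fits, and the shares of all genes called in them are not given. Both were chosen after seeing the data. Without the block, the median became 0.72 without replicate 1 and 1.81 without replicate 2. With 2 libraries a group, p-values measure only the spread between these libraries.

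Levels in the ZnF4 mutant lay on either side of wt. Both ZnF4 mutant libraries exceeded both wt libraries for 6 of the 34 members (Col6a1, Col6a2, Fn1, Serpinh1, Cdh5 and Kdr) and lay below both for 11, against 17.8% and 13.8% of all genes tested. Cdh5, which entered through the ZnF4 mutant libraries alone, was the single member past the threshold in limma's test (1.43% of all genes were called higher and 1.3% lower), and with no filter on low values its adjusted p was 0.037. Kdr joined it with the replicate block (8.02% higher and 7.92% lower) and, without the block, with no filter (adjusted p 0.04). The median over the 34 members was -0.06 against 0.04 for all genes. Within replicate 1, 15 members were above wt and 16 below it; within replicate 2, 8 were above and 22 below. Leaving out any single library ended the Cdh5 call or took the gene below the filter, and no member was then called.

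Set against the ZnF1 mutant, the ZnF4 mutant had lower levels of most members. The ZnF4 mutant libraries both lay below both ZnF1 mutant libraries for 27 of the 34 members and above them for 1, Cdh5, whereas 21.8% of all genes tested were lower and 21.7% higher in this way. Of the 20 members that did not enter through 1 of these groups alone, 5 fell in limma's test (Col1a2, Col6a1, Thbs1, Timp2 and Cald1), beside 3.75% of all genes called lower and 1.61% higher. Vcam1, admitted by the ZnF1 mutant libraries, passed as lower and Cdh5, admitted by the ZnF4 mutant libraries, as higher; with no filter their adjusted p-values were 0.027 and 0.035. With the replicate block 17 of the 20 fell and 0 rose, beside 19.2% and 15.9% of all genes, and the counts with the other members included were 24 lower and 1 higher. The median was -1.16 over the members and 0.04 over all genes. Of the 7 unblocked calls, 2 (Timp2 and Cald1) were left without wt replicate 1 and the same 2 without wt replicate 2, and 0 were left without either ZnF1 mutant library or either ZnF4 mutant library. The blocked fit made fewer calls with 1 ZnF1 mutant library left out, and the share of all genes called there is not given. Both mutant comparisons with wt share the wt libraries, and each shares its mutant libraries with this one.

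**Figure D3:**
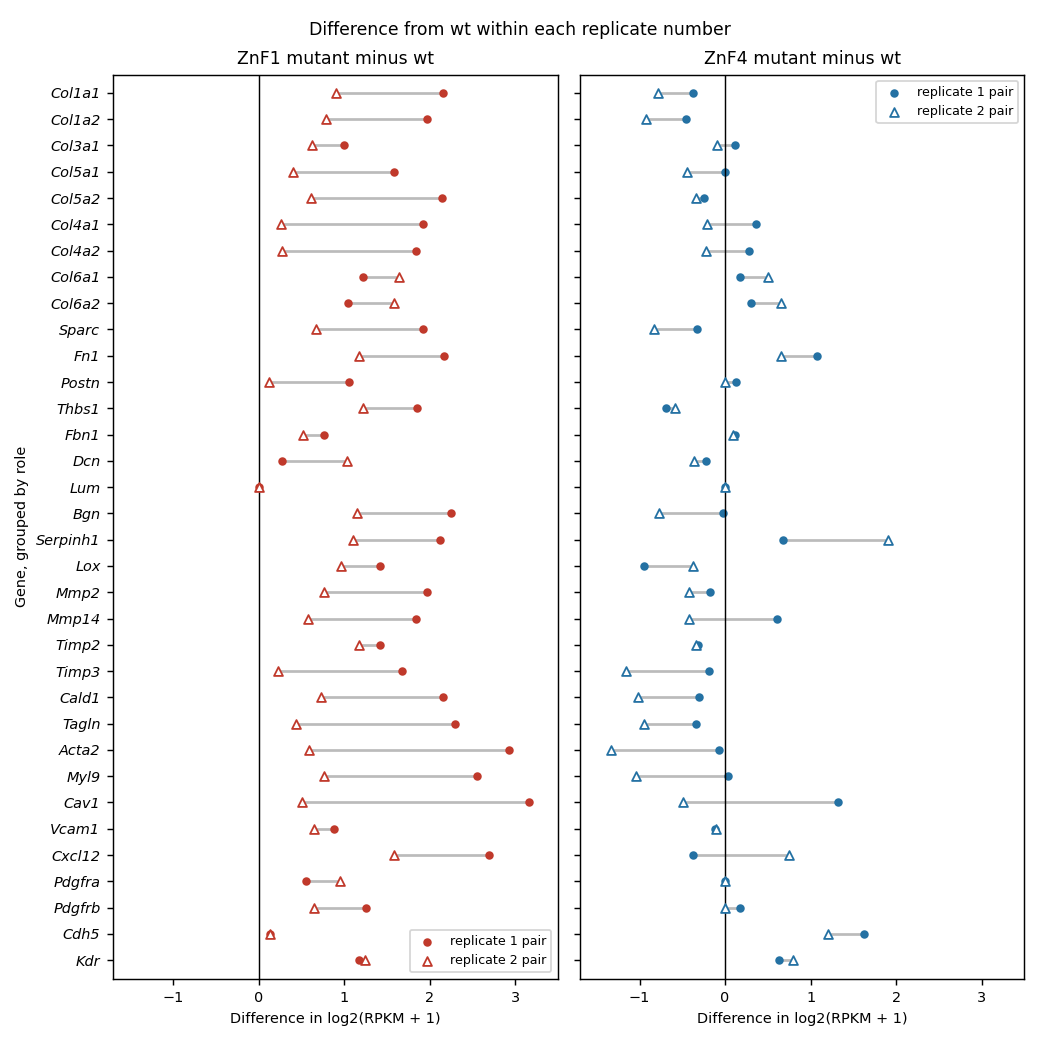
Difference from wt in log2(RPKM + 1) within replicate 1 (filled circles) and within replicate 2 (open triangles) for each of the 34 members found, for the ZnF1 mutant on the left and the ZnF4 mutant on the right; grey bars join the replicates. ZnF1 mutant differences are above 0 in both replicates for 33 genes, with medians of 1.84 and 0.7, while ZnF4 mutant differences lie on both sides of 0.

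Fibrillar collagens form the tensile fibres of connective tissue. Col1a1, the alpha-1 chain of type I collagen, stood at 28 and 8.8 RPKM in ZnF1 mutant cultures, 4 and 2 in ZnF4 mutant cultures and 5.5 and 4.2 in wt. Its partner chain Col1a2 stood at 24.8 and 12.8 RPKM in ZnF1 mutant cultures, 3.8 and 3.2 in ZnF4 mutant cultures and 5.6 and 7 in wt. For both chains the ZnF1 mutant libraries were the highest and the ZnF4 mutant libraries the lowest, with no overlap between any of the 3 groups. Col1a1 was higher in the ZnF1 mutant than in wt by 1.54 ± 0.56 (SE) on the log2(RPKM + 1) scale, with an adjusted p of 0.37, and of 0.033 with the replicate block. Between the ZnF4 and ZnF1 mutants Col1a1 differed by -2.12 ± 0.56, with an adjusted p of 0.11 unblocked and 0.0071 blocked. Col1a2 differed by 1.38 ± 0.33 in the ZnF1 mutant against wt (adjusted p 0.16, blocked 0.037). In the ZnF4 mutant Col1a2 fell by 2.07 ± 0.33 against the ZnF1 mutant (adjusted p 0.032, blocked 0.0064).

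The other fibrillar chains were scarce. Col3a1, the type III chain of elastic tissues, ranged over 1.3 to 1.4 RPKM in ZnF1 mutant cultures, 0.3 to 0.4 in ZnF4 mutant cultures and 0.2 to 0.5 in wt, with a difference of 0.81 ± 0.17 between the ZnF1 mutant and wt (adjusted p 0.13, blocked 0.03). It entered the tests through the ZnF1 mutant libraries alone, so the filter fixed its direction. Against the ZnF1 mutant, Col3a1 in the ZnF4 mutant differed by -0.80 ± 0.17 (adjusted p 0.063, blocked 0.015). Col5a1 and Col5a2, the type V chains that regulate fibre diameter, spanned 1.5 to 4.1 and 1.9 to 7.4 RPKM in the ZnF1 mutant and did not exceed 0.9 RPKM in any other library. Neither passed the test against wt in either fit, with blocked adjusted p-values of 0.091 and 0.089. Between the mutants Col5a1 differed by -1.21 ± 0.36 and Col5a2 by -1.67 ± 0.49, each with an unblocked adjusted p of 0.14 and a blocked one of 0.03. Both genes entered through the ZnF1 mutant libraries alone, so the filter fixed their direction as well.

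Type IV collagen is the network collagen of basement membranes and type VI collagen forms beaded filaments around cells. Col4a1 and Col4a2 are transcribed head to head from a shared region, and both stayed below the filter: Col4a1 stood at 4.3 and 0.8 RPKM in ZnF1 mutant cultures, 0.8 and 0.3 in ZnF4 mutant cultures and 0.4 and 0.5 in wt. Col4a2 stood at 4 and 0.7 RPKM in ZnF1 mutant cultures, 0.7 and 0.2 in ZnF4 mutant cultures and 0.4 and 0.4 in wt. Both genes were therefore high in ZnF1 mutant replicate 1 alone, and the other ZnF1 mutant library overlapped the ZnF4 mutant. In RefSeq's promoter windows on GRCm38.p6 (250 bases before to 50 after each start), the start sites are 21 bases apart. Col4a1, on the minus strand, starts at 11312826, and Col4a2, on the plus strand, starts at 11312805. Each gene is thus read across the start of the other, and their first bases overlap. The 78 bases that both windows share, at chr8:11312777-11312854, are shown because they hold the first bases of both genes. They are printed on the plus strand with a GGGCGG match in capitals.
Col4a1 and Col4a2: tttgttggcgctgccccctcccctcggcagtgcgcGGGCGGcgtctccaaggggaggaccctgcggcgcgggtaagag

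The type VI chains had closer replicates. Col6a1 stood at 8.3 and 9.6 RPKM in ZnF1 mutant cultures, 3.5 and 3.8 in ZnF4 mutant cultures and 3 and 2.4 in wt, so the 3 groups did not overlap and the replicates of each were close. Col6a2 spanned 5.2 to 5.3 RPKM in ZnF1 mutant cultures, 2.3 to 2.7 in ZnF4 mutant cultures and 1.1 to 2 in wt. Against wt in the ZnF1 mutant, Col6a1 differed by 1.43 ± 0.17 (adjusted p 0.092, blocked 0.0067) and Col6a2 by 1.32 ± 0.22 (adjusted p 0.10, blocked 0.011). In the ZnF4 mutant Col6a1 fell by 1.10 ± 0.17 against the ZnF1 mutant (adjusted p 0.032, blocked 0.0046), and Col6a2 differed by -0.84 ± 0.22 (adjusted p 0.10, blocked 0.014).

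Among the matrix glycoproteins, Thbs1, Fn1 and Sparc were abundant and Postn and Fbn1 scarce. Thbs1 (thrombospondin 1), an activator of latent TGF-beta, stood at 107.5 and 55.2 RPKM in ZnF1 mutant cultures, 17.6 and 15.1 in ZnF4 mutant cultures and 29 and 23.2 in wt. Fn1, the adhesive glycoprotein fibronectin, stood at 76.6 and 69.5 RPKM in ZnF1 mutant cultures, 35.3 and 48.2 in ZnF4 mutant cultures and 16.2 and 30.4 in wt. The groups did not overlap for either gene, but their order differed: the ZnF4 mutant was lowest for Thbs1 and intermediate for Fn1. Both genes are also expressed by macrophages. Macrophage markers summed to 1040 and 1180 RPKM in ZnF1 mutant cultures, 402 and 447 in ZnF4 mutant cultures and 375 and 432 in wt. The part of macrophages in the Thbs1 and Fn1 levels was not tested. Thbs1 was higher in the ZnF1 mutant than in wt by 1.54 ± 0.34 (adjusted p 0.14, blocked 0.013), and differed between the ZnF4 mutant and wt by -0.64 ± 0.34 (adjusted p 0.65, blocked 0.089). Thbs1 in the ZnF4 mutant fell by 2.17 ± 0.34 against the ZnF1 mutant (adjusted p 0.032, blocked 0.0023). Fn1 differed from wt by 1.67 ± 0.33 in the ZnF1 mutant (adjusted p 0.12, blocked 0.017) and by 0.86 ± 0.33 in the ZnF4 mutant (adjusted p 0.40, blocked 0.071). Between the mutants Fn1 differed by -0.81 ± 0.33, which passed neither fit (adjusted p 0.27, blocked 0.051).

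Sparc, a collagen-binding matricellular protein, stood at 87 and 27.7 RPKM in ZnF1 mutant cultures, 17.6 and 9.2 in ZnF4 mutant cultures and 22.3 and 17.1 in wt. The lower ZnF1 mutant library was close to the higher wt library, and the ZnF4 mutant overlapped wt. Sparc differed from wt by 1.29 ± 0.59 in the ZnF1 mutant (adjusted p 0.56, blocked 0.048), and by -1.87 ± 0.59 between the ZnF4 and ZnF1 mutants (adjusted p 0.16, blocked 0.0096). Fbn1, the microfibril protein fibrillin 1, spanned 1.2 to 1.3 RPKM in ZnF1 mutant cultures, 0.4 to 0.7 in ZnF4 mutant cultures and 0.3 to 0.6 in wt. Its difference was 0.64 ± 0.18 for the ZnF1 mutant against wt (adjusted p 0.23, blocked 0.039) and -0.54 ± 0.18 for the ZnF4 mutant against the ZnF1 mutant (adjusted p 0.19, blocked 0.031). Fbn1 entered the tests through the ZnF1 mutant libraries alone, so the filter fixed these directions. Postn, the matricellular protein periostin, reached 1.3 RPKM in ZnF1 mutant replicate 1 and did not exceed 0.3 elsewhere.

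The small leucine-rich proteoglycans bind collagen fibrils and growth factors. Bgn (biglycan) stood at 110.4 and 49.1 RPKM in ZnF1 mutant cultures, 22.2 and 12.2 in ZnF4 mutant cultures and 22.5 and 21.5 in wt. ZnF1 mutant replicate 1 had the highest level of any member in any library here, and ZnF4 mutant replicate 1 was level with wt. Bgn differed from wt by 1.70 ± 0.45 in the ZnF1 mutant (adjusted p 0.20, blocked 0.019) and by -0.39 ± 0.45 in the ZnF4 mutant (adjusted p 1, blocked 0.37). Between the ZnF4 and ZnF1 mutants Bgn differed by -2.09 ± 0.45 (adjusted p 0.068, blocked 0.0052). Its relatives were near the floor: Dcn (decorin) stood at 0.7 and 2.7 RPKM in ZnF1 mutant cultures, 0.2 and 0.4 in ZnF4 mutant cultures and 0.4 and 0.8 in wt, and Lum (lumican) was listed at 0 in all libraries.

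Serpinh1, the collagen-specific chaperone of the endoplasmic reticulum, was above wt in all mutant libraries. It stood at 35.5 and 11.2 RPKM in ZnF1 mutant cultures, 12.5 and 20.2 in ZnF4 mutant cultures and 7.4 and 4.7 in wt, so the mutants overlapped each other and neither overlapped wt. It passed no test: the difference from wt had a blocked adjusted p of 0.11 for the ZnF1 mutant and 0.16 for the ZnF4 mutant. Lox, a lysyl oxidase that crosslinks collagen and elastin, stood at 23.8 and 9.2 RPKM in ZnF1 mutant cultures, 3.8 and 3 in ZnF4 mutant cultures and 8.3 and 4.2 in wt. The groups did not overlap, although ZnF1 mutant replicate 2 and wt replicate 1 were close. Lox differed by 1.19 ± 0.50 between the ZnF1 mutant and wt (adjusted p 0.48, blocked 0.037) and by -1.86 ± 0.50 between the ZnF4 and ZnF1 mutants (adjusted p 0.11, blocked 0.0059).

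Of the remodelling enzymes and their inhibitors, Timp2 had the most even replicates. Timp2, a metalloproteinase inhibitor, stood at 36.9 and 29.3 RPKM in ZnF1 mutant cultures, 10.4 and 9.6 in ZnF4 mutant cultures and 13.2 and 12.4 in wt. All 3 groups were apart, and the differences within each group were small beside those between groups. Timp2 was higher in the ZnF1 mutant than in wt by 1.30 ± 0.17 (adjusted p 0.092, blocked 0.0052). Against the ZnF1 mutant it fell by 1.62 ± 0.17 in the ZnF4 mutant (adjusted p 0.016, blocked 0.001). Timp3, an inhibitor that binds the matrix, stood at 27.5 and 14.2 RPKM in ZnF1 mutant cultures, 6.8 and 4.8 in ZnF4 mutant cultures and 7.9 and 12 in wt; the gene lies in an intron of Syn3 on the other strand, and reads of both could not be told apart without strand. The ZnF4 mutant was lowest in both replicates, and Timp3 differed between the mutants by -1.63 ± 0.38 (adjusted p 0.079, blocked 0.021).

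Mmp14, a membrane-anchored metalloproteinase that activates Mmp2, stood at 17.3 and 5.6 RPKM in ZnF1 mutant cultures, 6.8 and 2.3 in ZnF4 mutant cultures and 4.1 and 3.4 in wt. Its mutants overlapped, and the difference between them of -1.12 ± 0.61 passed the test in the blocked fit only (adjusted p 0.43, blocked 0.044). Mmp2, a gelatinase, spanned 3.1 to 8.8 RPKM in ZnF1 mutant cultures, 0.8 to 1.2 in ZnF4 mutant cultures and 1.4 to 1.5 in wt. It differed by 1.37 ± 0.42 between the ZnF1 mutant and wt (adjusted p 0.26, blocked 0.045) and by -1.67 ± 0.42 between the ZnF4 and ZnF1 mutants (adjusted p 0.097, blocked 0.014).

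Acta2, Tagln and Myl9, genes of the contractile apparatus, differed widely between the ZnF1 mutant replicates. Acta2, the smooth muscle actin of myofibroblasts, stood at 77.7 and 16.9 RPKM in ZnF1 mutant cultures, 8.8 and 3.7 in ZnF4 mutant cultures and 9.3 and 10.9 in wt. Tagln, an actin-binding smooth muscle protein, stood at 38.4 and 10 RPKM in ZnF1 mutant cultures, 5.3 and 3.2 in ZnF4 mutant cultures and 7 and 7.1 in wt. Myl9, a myosin regulatory light chain, stood at 47.5 and 11.5 RPKM in ZnF1 mutant cultures, 7.5 and 2.6 in ZnF4 mutant cultures and 7.3 and 6.4 in wt. For all 3 genes ZnF1 mutant replicate 2 was closer to wt than to ZnF1 mutant replicate 1, and ZnF4 mutant replicate 2 was the lowest library. None passed the test against wt in either fit, with blocked adjusted p-values of 0.097 for Acta2, 0.11 for Tagln and 0.062 for Myl9. Between the ZnF4 and ZnF1 mutants Acta2 differed by -2.47 ± 0.75 (adjusted p 0.15, blocked 0.022). The same comparison gave -2.02 ± 0.61 for Tagln (adjusted p 0.15, blocked 0.022) and -2.15 ± 0.72 for Myl9 (adjusted p 0.19, blocked 0.016). Acta2 shares much of its coding sequence with the other actin genes, and the counting of reads common to them is not given in the sources here, so its level is uncertain.

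Cald1, the actin regulator caldesmon, stood at 20.4 and 12.1 RPKM in ZnF1 mutant cultures, 2.9 and 2.9 in ZnF4 mutant cultures and 3.8 and 6.9 in wt. The groups were fully apart, and the ZnF4 mutant replicates were equal. Cald1 fell by 2.10 ± 0.34 in the ZnF4 mutant against the ZnF1 mutant (adjusted p 0.034, blocked 0.0097), while its difference of 1.44 ± 0.34 between the ZnF1 mutant and wt reached adjusted p-values of 0.16 unblocked and 0.05 blocked, just short of the threshold. Cav1, the caveolar coat protein caveolin 1, spanned 2 to 9.7 RPKM in ZnF1 mutant cultures, 0.5 to 2 in ZnF4 mutant cultures and 0.2 to 1.1 in wt, and passed no test in any comparison.

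The niche factors were present at low levels outside the ZnF1 mutant. Cxcl12, the chemokine that retains haematopoietic precursors in marrow, stood at 19 and 7.4 RPKM in ZnF1 mutant cultures, 1.4 and 3.7 in ZnF4 mutant cultures and 2.1 and 1.8 in wt, as the sum of 3 transcript rows. Each row alone gave the same order of the ZnF1 mutant libraries above all others. Cxcl12 differed by 2.14 ± 0.51 on the log2(RPKM + 1) scale between the ZnF1 mutant and wt, which did not pass (adjusted p 0.16, blocked 0.055). Between the mutants it differed by -1.95 ± 0.51 (adjusted p 0.11, blocked 0.036). Vcam1, the adhesion ligand for the integrin of B-cell precursors, spanned 1.2 to 1.4 RPKM in ZnF1 mutant cultures, 0.2 to 0.3 in ZnF4 mutant cultures and 0.3 to 0.4 in wt. It too entered through the ZnF1 mutant libraries alone, and differed by 0.77 ± 0.14 between the ZnF1 mutant and wt (adjusted p 0.11, blocked 0.028) and by -0.88 ± 0.14 between the ZnF4 and ZnF1 mutants (adjusted p 0.034, blocked 0.0096). At these levels a change of 0.1 RPKM, the smallest step of the table, is a large part of the value.

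Of the platelet-derived growth factor receptors of mesenchymal cells, Pdgfrb spanned 1.2 to 2.6 RPKM in ZnF1 mutant cultures, 0.4 to 0.7 in ZnF4 mutant cultures and 0.4 to 0.5 in wt. Its difference from wt in the ZnF1 mutant was 0.96 ± 0.27 (adjusted p 0.23, blocked 0.032), and that of the ZnF4 mutant from the ZnF1 mutant was -0.87 ± 0.27 (adjusted p 0.16, blocked 0.021). Pdgfrb entered the tests through the ZnF1 mutant libraries alone, so the filter fixed these directions. Pdgfra, below the filter, stood at 0.9 and 2.1 RPKM in ZnF1 mutant cultures, 0.3 and 0.6 in ZnF4 mutant cultures and 0.3 and 0.6 in wt. It was one of the few members that were higher in ZnF1 mutant replicate 2 than in replicate 1.

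Cdh5 and Kdr were the members called in the ZnF4 mutant against wt, Kdr with the replicate block or, without it, with a pseudocount of 0.1 (adjusted p 0.035) or no filter. Cdh5, the adhesion molecule of endothelial junctions (VE-cadherin), stood at 0.1 and 0.1 RPKM in ZnF1 mutant cultures and 2.1 and 1.3 in ZnF4 mutant cultures, and was listed at 0 in both wt libraries. The ZnF4 mutant libraries were thus the only ones above 0.1 RPKM. Cdh5 entered the tests through them alone, so the filter fixed its direction. On the log2(RPKM + 1) scale Cdh5 in the ZnF4 mutant was above wt by 1.42 ± 0.18 (adjusted p 0.027, blocked 0.0071) and above the ZnF1 mutant by 1.28 ± 0.18 (adjusted p 0.028, blocked 0.0062); with wt listed at 0 these sizes depend on the pseudocount, and the difference from wt was 4.13 with a pseudocount of 0.1. Kdr, the receptor for vascular endothelial growth factor, spanned 1.5 to 1.6 RPKM in ZnF1 mutant cultures, 0.7 to 0.9 in ZnF4 mutant cultures, and was at 0.1 RPKM in both wt libraries. Kdr entered the tests through the ZnF1 mutant libraries alone, so the filter fixed its direction in both comparisons with that mutant. Both mutants were above wt, the ZnF1 mutant by 1.21 ± 0.14 (adjusted p 0.092, blocked 0.0085) and the ZnF4 mutant by 0.71 ± 0.14 (adjusted p 0.084, blocked 0.021). With wt at the smallest step of the table these sizes depend on the pseudocount too, and with 0.1 they were 3.04 and 2.16. Kdr differed by -0.50 ± 0.14 between the ZnF4 and ZnF1 mutants (adjusted p 0.12, blocked 0.032), so that Cdh5 and Kdr ran in opposite order across the mutants. Pecam1, an adhesion molecule that leukocytes also carry, stood at 25.8 and 22.4 RPKM in ZnF1 mutant cultures, 9.9 and 9.4 in ZnF4 mutant cultures and 18.6 and 18.3 in wt. It fell in the ZnF4 mutant against the ZnF1 mutant (-1.23 ± 0.15, adjusted p 0.021). It was the only call among the 20 further endothelial genes, of which 5 were tested; with the block 2 rose and 1 fell in the ZnF1 mutant against wt, 0 rose and 2 fell in the ZnF4 mutant against wt, and 2 rose and 3 fell between the mutants. Of all genes, the block called 10.4% higher and 2.88% lower, 8.02% and 7.92%, and 15.9% and 19.2% in these comparisons, in the same order. The median over the 20 was 0 in each comparison, but 11 of them never exceeded 0.5 RPKM, so genes near the floor set it. In the ZnF4 mutant against wt the 5 tested differed by -0.87 (Pecam1), -0.80 (Erg), -0.14 (Eng), 0.10 (Egfl7) and 0.88 (Ramp2).

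The size of the ZnF1 mutant difference depended on which replicate was read, and not evenly over the genes. Among the 27 members with at least 1 RPKM in both ZnF1 mutant libraries, the ratio of replicate 1 over replicate 2 ran from 0.865 to 4.85 with a median of 2.25. The same ratio ran from 0.378 to 2.96 with a median of 1.27 over 19 members in the ZnF4 mutant, and from 0.533 to 1.98 with a median of 1.14 over 19 members in wt. The highest ratios in the ZnF1 mutant were those of Cav1 at 4.85, Acta2 at 4.6, Myl9 at 4.13, Col5a2 at 3.89 and Tagln at 3.84, followed by Col1a1 at 3.18, Serpinh1 at 3.17 and Sparc at 3.14. Within a role the ratios differed, with Col1a2 at 1.94 beside Col1a1 and Cald1 at 1.69 beside Acta2. Near 1 were Timp2 at 1.26, Vcam1 at 1.17, Fn1 at 1.1 and Col3a1 at 1.08, and below 1 were Col6a2 at 0.981, Kdr at 0.938, Fbn1 at 0.923 and Col6a1 at 0.865. In the same libraries the summed macrophage genes had a ratio of 0.881 across the ZnF1 mutant replicates. The ratio was 1.7 for the summed marrow stromal and mesenchymal markers and 3.69 for the summed contractile and caveolar members. Csf1, at 140.5 and 79.9 RPKM, and Foxc1, at 47.3 and 33.3, made up most of the stromal sums of 224 and 132.

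**Figure D4:**
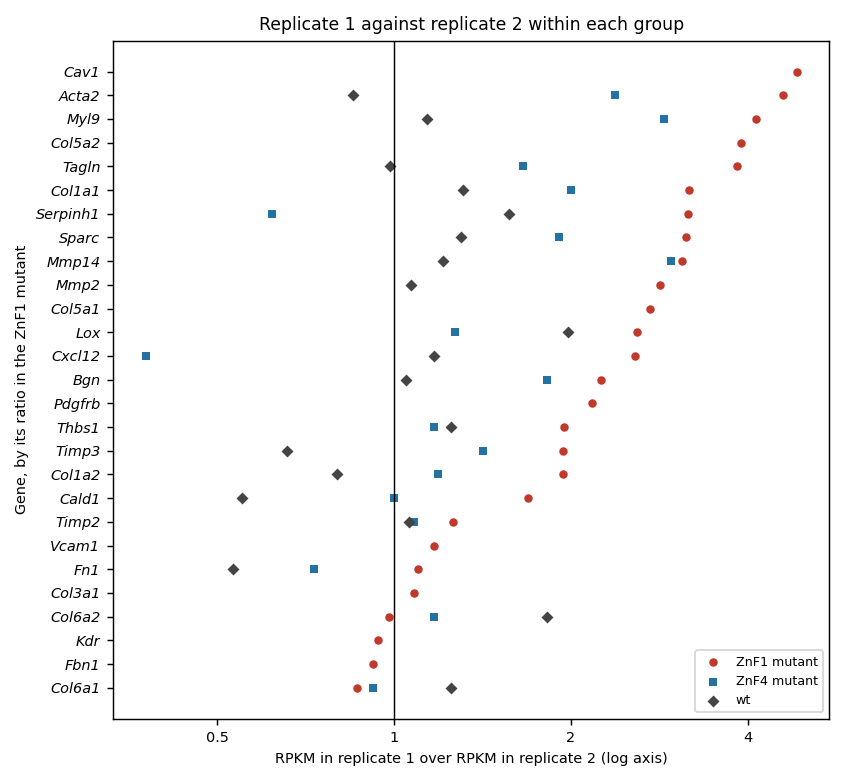
RPKM in replicate 1 over RPKM in replicate 2 (log axis) for the 27 members with at least 1 RPKM in both ZnF1 mutant libraries, with the same ratio in the ZnF4 mutant and wt where both libraries reached 1 RPKM. ZnF1 mutant ratios run from 0.865 for Col6a1 to 4.85 for Cav1, whereas no wt ratio exceeds 1.98.

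Contractile and caveolar members summed to 194 and 52.5 RPKM in ZnF1 mutant cultures, 26.5 and 12.9 in ZnF4 mutant cultures and 27.6 and 32.4 in wt, so the ZnF1 mutant was 7.02 times wt in replicate 1 and 1.62 times wt in replicate 2. Fibrillar collagens summed to 65.7 and 26.3 RPKM in ZnF1 mutant cultures, 9.4 and 6.5 in ZnF4 mutant cultures and 12.9 and 13.5 in wt, or 5.09 and 1.95 times wt in the ZnF1 mutant. In the ZnF1 mutant the type IV chains were 10.4 times wt in replicate 1 and 1.67 times wt in replicate 2, at levels below the filter, and the type VI chains 2.7 and 4.26 times wt. In the ZnF4 mutant the contractile and caveolar sum was 0.96 times wt in replicate 1 and 0.398 times wt in replicate 2.

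Promoter windows of RefSeq (GRCm38.p6, 250 bases before to 50 after the start) were at hand for 23 of the 35 genes, in 27 windows. A CArG box, the element bound by serum response factor in smooth muscle genes, was searched as CC, then 6 letters each A or T, then GG, and was found in 1 of the 23 genes, Myl9, and in 1.63% of all 32851 windows. GGGCGG, a GC box, was found in 16 of the 23 genes (35.7% of all windows), CCAAT in 7 (37.4%), TATAAA in 4 (13.6%), TGANTCA, the AP-1 element, in 2 (7.81%) and TGACGTCA in 0 (1.79%). Both strands were searched, and no overlap between motifs was removed. The windows of Acta2 (chr19:34255324-34255623, minus strand) and Myl9 (chr2:156775214-156775513, plus strand), with ratios between the ZnF1 mutant replicates above 4, are shown beside those of Timp2 (chr11:118355362-118355661, minus strand) and Col6a1 (chr10:76725995-76726294, minus strand), with ratios near 1. They run 5′ to 3′ in the direction of the gene, and capitals mark the motif matches: the CArG box of Myl9 at -161 to -152 from the start and its GC boxes, a CCAAT and a GC box of Timp2, and the TGANTCA match of Col6a1 at -90 to -84. A match is a sequence of letters and not a measured binding site, and elements with a substituted letter were not searched.
Acta2: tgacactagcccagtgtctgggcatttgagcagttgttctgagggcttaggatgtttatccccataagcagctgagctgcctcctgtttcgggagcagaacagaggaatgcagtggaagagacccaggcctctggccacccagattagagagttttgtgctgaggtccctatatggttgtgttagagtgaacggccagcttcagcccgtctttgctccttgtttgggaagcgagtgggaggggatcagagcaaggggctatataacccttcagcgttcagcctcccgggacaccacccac
Myl9: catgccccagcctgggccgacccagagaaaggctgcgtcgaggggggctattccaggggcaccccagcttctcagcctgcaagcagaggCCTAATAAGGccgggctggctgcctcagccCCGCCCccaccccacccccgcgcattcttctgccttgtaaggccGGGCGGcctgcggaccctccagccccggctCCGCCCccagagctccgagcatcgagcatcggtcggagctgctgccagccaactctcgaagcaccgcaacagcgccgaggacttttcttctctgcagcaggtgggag
Timp2: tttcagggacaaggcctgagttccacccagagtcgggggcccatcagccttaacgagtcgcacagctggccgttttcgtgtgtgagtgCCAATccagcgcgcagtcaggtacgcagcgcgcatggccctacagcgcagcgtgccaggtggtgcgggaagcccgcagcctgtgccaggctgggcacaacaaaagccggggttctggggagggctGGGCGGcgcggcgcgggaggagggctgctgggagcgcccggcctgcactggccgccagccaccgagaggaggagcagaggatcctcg
Col6a1: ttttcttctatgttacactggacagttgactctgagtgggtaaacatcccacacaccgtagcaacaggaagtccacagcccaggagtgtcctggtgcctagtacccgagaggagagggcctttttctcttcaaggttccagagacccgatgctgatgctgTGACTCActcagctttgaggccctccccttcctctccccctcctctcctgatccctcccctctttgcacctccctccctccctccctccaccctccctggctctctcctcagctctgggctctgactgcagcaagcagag

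The other genes of matrix biology were taken from 5 lists. With the block, 10.4% of all genes tested were called higher and 2.88% lower in the ZnF1 mutant against wt. The shares were 8.02% and 7.92% in the ZnF4 mutant against wt, and 15.9% and 19.2% in the ZnF4 mutant against the ZnF1 mutant. The list counts include genes that entered through the ZnF1 mutant libraries alone, such as Ddr2, Mrc2, Acvrl1 and Vcan, whose direction the filter fixed. Of 23 genes of collagen hydroxylation, processing and crosslinking found, 18 were tested, none was called in the ZnF1 mutant against wt, and 5 rose and 0 fell with the replicate block. Pcolce, an enhancer of procollagen trimming, stood at 12.3 and 6.5 RPKM in ZnF1 mutant cultures, 2.9 and 1.7 in ZnF4 mutant cultures and 3.2 and 2.2 in wt. Plod1, a lysyl hydroxylase, stood at 8.8 and 5.7 RPKM in ZnF1 mutant cultures, 3.7 and 2.6 in ZnF4 mutant cultures and 3 and 2.8 in wt, and Bmp1, the procollagen C-proteinase, spanned 2.7 to 4.6 RPKM in the ZnF1 mutant and 1.1 to 1.4 elsewhere. With the block 0 rose and 10 fell in the ZnF4 mutant against the ZnF1 mutant, and 0 rose and 1 (Plod2) fell against wt. The medians over the 23 genes were 0.49 for the ZnF1 mutant against wt, -0.05 for the ZnF4 mutant against wt and -0.43 between the mutants.

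Of 39 further matrix genes found, 19 were tested. Against wt, 0 were called in either mutant, and with the block 10 rose and 0 fell in the ZnF1 mutant and 2 rose and 0 fell in the ZnF4 mutant. Mgp, the matrix Gla protein, stood at 28.9 and 35.6 RPKM in ZnF1 mutant cultures, 13.6 and 13.5 in ZnF4 mutant cultures and 10.9 and 15.9 in wt. Against the ZnF1 mutant, 3 fell in the ZnF4 mutant: Mgp (-1.18 ± 0.22), the TGF-beta induced Tgfbi (-1.35 ± 0.21, adjusted p 0.032) and the follistatin-like Fstl1 (-1.86 ± 0.27, adjusted p 0.027). With the block 1 rose and 13 fell in that comparison. Nid2, a basement membrane linker, stood at 4.9 and 2.9 RPKM in ZnF1 mutant cultures, 2 and 1 in ZnF4 mutant cultures and 0.7 and 0.5 in wt. The medians were 0.54, -0.05 and -0.29 for the ZnF1 mutant against wt, the ZnF4 mutant against wt and the ZnF4 mutant against the ZnF1 mutant.

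Matrix receptors, of which 12 of 18 were tested, had 0 calls against wt in either mutant. With the block, 6 rose and 0 fell in the ZnF1 mutant against wt, and 0 rose and 1 (Cd44) fell in the ZnF4 mutant. Against the ZnF1 mutant, 3 fell in the ZnF4 mutant: the hyaluronan receptor Cd44 (-1.10 ± 0.15, adjusted p 0.027), the integrin chain Itgb5 (-1.47 ± 0.25, adjusted p 0.036) and the syndecan Sdc2 (-1.33 ± 0.24, adjusted p 0.047), and 7 fell with the block. Cd44, which leukocytes carry too, stood at 58.4 and 53.2 RPKM in ZnF1 mutant cultures, 26.4 and 24.7 in ZnF4 mutant cultures and 35.3 and 30.8 in wt. The medians of the 18 were 0.56 for the ZnF1 mutant against wt, -0.02 for the ZnF4 mutant against wt and -0.62 between the mutants.

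TGF-beta genes, of which 17 of 18 were tested, were led by Tgfbr3, the co-receptor betaglycan. Tgfbr3 stood at 2 and 2.4 RPKM in ZnF1 mutant cultures, 10.6 and 9 in ZnF4 mutant cultures and 0.7 and 0.9 in wt. It rose in the ZnF4 mutant against wt (2.58 ± 0.17, adjusted p 0.0067) and against the ZnF1 mutant (1.75 ± 0.17, adjusted p 0.014), the single call of the list against wt. Ltbp1 and Ltbp2, which store latent TGF-beta in the matrix, fell in the ZnF4 mutant against the ZnF1 mutant by 1.37 ± 0.23 (adjusted p 0.037) and 1.55 ± 0.21 (adjusted p 0.027). Ltbp1 entered the tests through the ZnF1 mutant libraries alone, so the filter fixed its direction. With the block 7 rose and 0 fell in the ZnF1 mutant against wt, 1 rose and 2 fell in the ZnF4 mutant against wt, and 1 rose and 9 fell between the mutants. The medians were 0.49 for the ZnF1 mutant against wt, -0.02 for the ZnF4 mutant against wt and -0.64 between the mutants.

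Other proteases and inhibitors, of which 13 of 19 were tested, had 0 calls against wt and the highest median of the 5 lists in ZnF1 mutant cultures, 1.06. Mmp9, a gelatinase of macrophages and neutrophils, stood at 37 and 40.6 RPKM in ZnF1 mutant cultures, 3.9 and 7.3 in ZnF4 mutant cultures and 8.3 and 9.6 in wt. It fell by 2.64 ± 0.28 in the ZnF4 mutant against the ZnF1 mutant (adjusted p 0.016), as did the lysosomal protease Ctsb by 1.22 ± 0.23 (adjusted p 0.049). With the block 5 rose and 0 fell in the ZnF1 mutant against wt, 1 (Ctsk) rose and 0 fell in the ZnF4 mutant against wt, and 0 rose and 8 fell between the mutants. The median was 0 in the ZnF4 mutant against wt and -0.65 between the mutants.

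Markers of other cells moved as follows in the same fits. The shares of all genes called with the block apply here too, 10.4% higher in the ZnF1 mutant against wt and 19.2% lower between the mutants. Without the block the same shares were 0% and 3.75%. Of the 14 macrophage genes, 0 were called in the ZnF1 mutant against wt and 12 rose with the block, and 7 fell in the ZnF4 mutant against the ZnF1 mutant (12 with the block); the medians were 1.35 for the ZnF1 mutant against wt, 0.19 for the ZnF4 mutant against wt and -1.21 between the mutants. For comparison, the median of the matrix and stromal members in the ZnF1 mutant against wt was 1.29. Tyrobp, a macrophage adaptor, stood at 83 and 71.1 RPKM in ZnF1 mutant cultures, 19.6 and 19.6 in ZnF4 mutant cultures and 25.4 and 21.1 in wt. Among 18 marrow stromal and mesenchymal markers, 7 were tested, and 3 rose in the ZnF1 mutant against wt with the block, 0 without it. Prrx1, a mesenchymal homeobox factor, stood at 4.5 and 3.2 RPKM in ZnF1 mutant cultures, 0.9 and 1 in ZnF4 mutant cultures and 0.8 and 1.3 in wt, and fell in the ZnF4 mutant against the ZnF1 mutant (-1.30 ± 0.21, adjusted p 0.034). Foxc1 fell likewise (-1.39 ± 0.26, adjusted p 0.049).

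Bone, cartilage and fat markers were tested for 6 of 14 genes. For the lists in this paragraph the shares of all genes called are those given above. Lpl, a lipase of fat cells and macrophages, stood at 90.9 and 101.8 RPKM in ZnF1 mutant cultures, 38.7 and 51.2 in ZnF4 mutant cultures and 35 and 28.4 in wt. The list had 0 calls against wt, 4 with the block in the ZnF1 mutant, and 1 fall between the mutants, the fat cell regulator Pparg (-1.01 ± 0.19, adjusted p 0.049). Granulocyte genes had 0 calls in all 3 comparisons in both fits; megakaryocyte genes had 0 calls without the block and 1 with it, Gp1bb, which fell in the ZnF4 mutant against the ZnF1 mutant (blocked adjusted p 0.03). The 8 pro-B markers had 0 calls without the block. With it, Cd79b, a chain of the B-cell receptor complex, rose in the ZnF1 mutant against wt (0.65, blocked SE 0.12, blocked adjusted p 0.03). None was called in the ZnF4 mutant against wt. Cd79a and Cd79b fell in the ZnF4 mutant against the ZnF1 mutant (blocked adjusted p 0.031 and 0.018). The 8 markers had medians of 0.14 for the ZnF1 mutant against wt, -0.04 for the ZnF4 mutant against wt and -0.18 between the mutants. The part of these cells in the matrix and stromal levels was not tested.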

How the data were processed

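Expression values of 6 libraries, 2 in each of 3 groups, were used as the authors deposited them: RPKM for RefSeq transcripts, rounded to 1 decimal. TopHat, bedtools and mm9 as the mouse build appear in the submitters' processing notes; how shared reads were counted and whether strand was used are not given in the sources used here. The depth is unknown, because rounding hides the step of 1 read, so counting intervals are not given, and RPKM summed to 287007 to 345766 per library.

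The 26531 rows were summed to 22099 genes by symbol, after 39 of 40 symbols turned into numbers had been restored and 1 row without a gene had been left out. The 11345 genes that reached 1 RPKM in 2 or more libraries were tested on log2(RPKM + 1), with a pseudocount of 1 RPKM, in limma 3.58.1 (R 4.3.3) with an intensity trend: 3 group means in 1 fit of all libraries, two-sided, Benjamini-Hochberg adjustment over all 11345 genes, threshold 0.05. Differences on this scale understate those of low genes. The fit was tested on simulated data. A second fit added the replicate number as a block. Values after ± are SEs of the fit without the block, also where a blocked adjusted p is given. After group means were subtracted, libraries of the same number correlated at 0.715 between the ZnF1 and ZnF4 mutants, 0.5 between the ZnF1 mutant and wt and 0.754 between the ZnF4 mutant and wt, so the numbers were taken to pair the libraries; the pairing comes from the numbers in the labels and this check.

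Every member is accounted for. Members with a mean of at least 5 RPKM over the 6 libraries are given in every library and the others by their range or levels; fold changes are given for members called in either fit and for the 3 most abundant, Thbs1, Fn1 and Bgn. In other lists the named genes are mostly called genes or those with the lowest p, and not every such gene is named. The members and lists were chosen with earlier results of these data known. Alternatives changed the pseudocount, the filter, the scaling, the summing of rows, the trend and the libraries used. Promoter windows came from RefSeq (GRCm38.p6), whose coordinates were not set against the mm9 values.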

Additional observations from a re-analysis of the deposited data

How the results depend on the processing

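For the ZnF1 mutant against wt, 0 members were called in the fit without a block. No other setting except the replicate block gave a call. The block gave 16, and 11 of the 21 members that did not enter through the ZnF1 mutant libraries alone. Of all genes the block called 10.4% higher and 2.88% lower. With the block, fewer members were called with 1 ZnF1 mutant library left out, a check chosen after seeing the data. Shares of all genes called are given above for the fits with and without the block only. The median of 1.29 became 1.67 with a pseudocount of 0.1, 1.63 without the pair richest in granulocyte transcripts, and 0.72 to 1.81 with single libraries left out. For the ZnF4 mutant against wt, 1 member was called, against 2 with the replicate block, 2 with a pseudocount of 0.1, 2 with no filter, 0 with a filter of 5 RPKM (Cdh5 was then not tested), 0 with only the 4 libraries compared, 0 without the granulocyte-rich pair and 0 to 0 with single libraries left out. For the ZnF4 against the ZnF1 mutant, 7 members were called, against 25 with the replicate block, 4 with no filter, 2 with only the 4 libraries compared, 0 without the granulocyte-rich pair and 0 to 2 with single libraries left out; with the block, 13 and 17 were called without ZnF1 mutant replicate 1 and replicate 2, again chosen after seeing the data. Its median of -1.16 became -1.91 with a pseudocount of 0.1, -1.80 without the granulocyte-rich pair and -1.80 to -0.97 with single libraries left out. Median-ratio scaling changed none of the 3 counts; nor did quantile normalization, though in the ZnF4 against the ZnF1 mutant Bgn passed (adjusted p 0.042) and Vcam1 did not (0.056). Of 798 values of single genes under an alternative, 675 kept their direction and their side of the threshold, 67 newly passed it, 55 no longer passed it and 1 reversed: Bgn in the ZnF4 mutant against wt was -0.39, and -0.80 to 0.01 with single libraries left out, the value above 0 being that without ZnF4 mutant replicate 2. Fits without a library assume that a lone library varies like the other groups. The cause of these changes was not tested beyond what fewer libraries or fewer genes tested bring. Precision is limited by 2 libraries a group and by the step of 0.1 RPKM, which is coarse for members near 1 RPKM.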

Other observations

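The Col1a1 to Col1a2 ratio, a measure that cancels the amount of type I collagen message, was 1.13 and 0.688 in ZnF1 mutant cultures, 1.05 and 0.625 in ZnF4 mutant cultures and 0.982 and 0.6 in wt. It was higher in replicate 1 than in replicate 2 of every group and overlapped between all groups. The Col6a1 to Col6a2 ratio was 1.6 and 1.81 in ZnF1 mutant cultures, 1.3 and 1.65 in ZnF4 mutant cultures and 1.5 and 2.18 in wt, and was lower in replicate 1 of every group. The Thbs1 to Fn1 ratio was 1.4 and 0.794 in ZnF1 mutant cultures, 0.499 and 0.313 in ZnF4 mutant cultures and 1.79 and 0.763 in wt, with both ZnF4 mutant libraries below all others.

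Besides Cdh5, several genes of the other lists were higher in the ZnF4 mutant. Flt1, a receptor for vascular endothelial growth factor, stood at 1.1 and 0.6 RPKM in the ZnF4 mutant, 0 and 0.2 in ZnF1 mutant cultures and 0.1 and 0 in wt, below the filter. The basement membrane laminin chain Lamb2 stood at 6 and 3.1 RPKM in the ZnF4 mutant, 2.1 and 1.1 in ZnF1 mutant cultures and 0.7 and 0.6 in wt (against wt 1.70 ± 0.32, adjusted p 0.076, blocked 0.0056). Ctsk, a collagen-degrading protease of osteoclasts, stood at 26.2 and 49.5 RPKM in the ZnF4 mutant, 19 and 7.3 in ZnF1 mutant cultures and 3.1 and 7.6 in wt (against wt 2.64 ± 0.59, adjusted p 0.12, blocked 0.042). Flt1 and Ctsk were singled out after their values were seen. Other genes of the same lists went the other way. Of the 20 further endothelial genes, 3 were higher than wt without overlap in the ZnF4 mutant and 4 were lower. Among all genes tested these shares were 17.8% and 13.8%. Plod2 was lower than wt by 1.82 ± 0.37 (adjusted p 0.091, blocked 0.0078). Tgfb3 was lower by 1.44 ± 0.42 (adjusted p 0.22, blocked 0.0056).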
